A study of Homo sapiens with 18 samples.

Results

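Aminoacyl-tRNA synthetases join each amino acid to its tRNA, and 35 of their genes were followed through 18 RNA-seq libraries of K562 cells, a human erythroleukaemia line. The genes were chosen by name and function and not by a cut on their values, though with earlier results of these data known. Of them 19 encode cytosolic enzymes and 16 encode mitochondrial enzymes, out of 24408 genes in the count files. All 35 had counts in every library and all 35 passed the filter on low counts, with 14720 genes tested. The groups, of 3 libraries each, were as follows. KRAB_CR4 and KRAB_CR10 carried a catalytically inactive Cas9 (dCas9) fused to the KRAB repressor domain, with a guide RNA (gRNA), CR4 or CR10, aimed at the HS2 enhancer of the beta-globin genes. In dCas9_CR4 and dCas9_CR10 the same gRNAs met dCas9 alone, with no repressor fused to it. KRAB_no_gRNA had the fusion and no gRNA, and the no_lentivirus cells were left untransduced. The 15 libraries of the 5 lentiviral groups came from cells that had been exposed to lentivirus with 4 µg/ml polybrene and put under 1 µg/ml puromycin from about 96 hours later, so that vector, polybrene and drug cannot be told apart against no_lentivirus. The study describes triplicate transductions for dCas9-KRAB with a gRNA and does not say so for every other group, so p-values there measure the spread between libraries, which may be technical.

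The cytosolic enzymes charge tRNAs for the ribosomes of the cytosol, and the mitochondrial enzymes, also encoded in the nucleus, charge the tRNAs of the organelle. GARS1 and KARS1 serve both compartments and stand here with the cytosolic set. When amino acids run short, uncharged tRNA activates the kinase GCN2 and the translation of the transcription factor ATF4 rises, and ATF4 in turn activates amino acid synthesis, amino acid transport and many cytosolic synthetase genes. From such background 12 cytosolic members were listed as known ATF4 targets: AARS1, CARS1, EPRS1, GARS1, IARS1, LARS1, MARS1, NARS1, SARS1, TARS1, WARS1 and YARS1. The other 7 are FARSA, FARSB, HARS1, KARS1, QARS1, RARS1 and VARS1.

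ATF4 binds composite elements whose core reads TGATGCAA on one strand and TTGCATCA on the other. Promoter windows of 300 bases, from 250 before to 50 after each gene's start, were taken from RefSeq (GRCh38.p14) for the 30 members that have at least 1, with 39 windows in all; LARS1, VARS1, YARS1, AARS2 and VARS2 have none in the table. Searched on both strands, TGATGCAA stood in a window of 6 of the 16 cytosolic and 0 of the 14 mitochondrial members, against 1.08% of all 27305 genes with a window. These 6 are shown because they hold the exact element. All belong to the ATF4 target list, of which 10 members have a window. The 6 fell against untransduced cells, as did EPRS1, GARS1, SARS1 and WARS1, whose windows lack the exact element, as described below. Capitals mark the element, which starts 187 bases before the gene's start in AARS1, within 13 bases before it in CARS1, IARS1 and MARS1, and within 15 bases after it in NARS1 and TARS1.
AARS1, chr16:70289678-70289745, minus strand: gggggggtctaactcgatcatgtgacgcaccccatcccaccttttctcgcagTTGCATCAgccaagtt
CARS1, chr11:3057410-3057477, minus strand: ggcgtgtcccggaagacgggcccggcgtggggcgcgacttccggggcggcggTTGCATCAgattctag
IARS1, chr9:92293695-92293762, minus strand: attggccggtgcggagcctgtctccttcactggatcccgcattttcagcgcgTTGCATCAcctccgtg
MARS1, chr12:57488012-57488079, plus strand: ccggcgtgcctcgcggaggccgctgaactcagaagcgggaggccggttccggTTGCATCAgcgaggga
NARS1, chr18:57621807-57621874, minus strand: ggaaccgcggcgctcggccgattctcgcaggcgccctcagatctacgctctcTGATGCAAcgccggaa
TARS1, chr5:33440915-33440982, plus strand: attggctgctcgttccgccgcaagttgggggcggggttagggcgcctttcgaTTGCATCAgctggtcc
With any base at position 6 (TGATGNAA, which includes the exact element) GARS1 and YARS2 were added, giving 8 of 30 members against 4.46% of all genes. A match is a run of letters in this window and was not tested as a binding site.

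The libraries held 22805964 to 34032962 counts, all of them even numbers per accession. The ribosomal RNA share was 4.02% in library 2 of KRAB_CR4, 3.52% in library 1 of KRAB_CR10 and at most 1.5% elsewhere. All 12 listed erythroid markers of K562 had counts in every library, summing (relative to unscaled totals, as for the other marker lists) to 2745 to 4982 CPM in lentiviral libraries against 3383 to 5084 CPM in untransduced ones. Of these 12, 5 were lower against no_lentivirus (11.2% of all genes) and 8 were lower in libraries numbered 3 (25.9%). The list includes the globin genes HBE1, HBG1 and HBG2, which lie under the targeted enhancer HS2. Without no_lentivirus library 2, 5 of the list were lower (1.36% of all genes), namely these globin genes, ALAS2 and GATA1. HBE1, the embryonic globin gene controlled by HS2, averaged 61.6 ± 6.2 CPM (counts relative to the library's TMM-scaled total) in KRAB_CR4 and 85 ± 11 CPM in KRAB_CR10, against 457 ± 17.8 CPM in KRAB_no_gRNA (SD, n = 3 each). Of 10 markers of other blood cells 3 had counts in every library, with MS4A1 at 0 throughout, and the list summed to 15 to 39.3 CPM in lentiviral libraries against 38 to 45.6 CPM in untransduced ones. Within the lentiviral libraries that list summed to 32.4 to 39.3 CPM in number 3 against 15 to 25.1 CPM in numbers 1 and 2, and 3 of its 4 tested genes were higher there (27.9% of all genes). The fibroblast and epithelial list summed to 113 to 150.2 CPM against 103 to 122 CPM, with KRT5 at 0 throughout and 3 of 5 markers counted in every library. The part of these cells in the results was not tested, and in bulk libraries fewer cells of a type and less RNA per cell cannot be told apart. The lentiviral libraries numbered 3 stood apart from those numbered 1 and 2 in all 5 groups, and the 3 untransduced libraries, library 2 above all, differed from each other; both are described below through the synthetases.

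Per kilobase of transcript, which allows genes to be compared, the cytosolic members lay well above the mitochondrial ones. Over the 15 lentiviral libraries the cytosolic means ran from 45.2 CPM per kb for FARSB, the beta subunit of the phenylalanyl enzyme, to 179 CPM per kb for SARS1, the seryl enzyme, with a median of 132. An accession with a known length held 83.2% of the SARS1 counts, and on those alone it read 149 CPM per kb and ranked 6 of 35. The mitochondrial means ran from 9.3 CPM per kb for PARS2, the prolyl enzyme, to 93.4 CPM per kb for IARS2, with a median of 20. IARS2, the mitochondrial isoleucyl enzyme, was the 1 mitochondrial member above any cytosolic one. Its 93.4 ± 8.88 CPM per kb did not differ beyond the spread from the 93.3 ± 7.83 of NARS1, the cytosolic asparaginyl enzyme (SD, n = 15). At the top, SARS1 at 179 ± 26.1, VARS1 at 177 ± 10.3, KARS1 at 176 ± 13.5 and GARS1 at 173 ± 31.5 CPM per kb were likewise within their spread. The next mitochondrial member, SARS2, read 30.1 ± 3.62 CPM per kb. For most members with several accessions the counts were split near evenly (KARS1 48.4% to 51.6% per accession in lentiviral libraries), with SARS1 an exception at 83.2% in 1 accession, so isoforms, including the cytosolic and mitochondrial forms of KARS1, cannot be told apart.

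**Figure D1:**
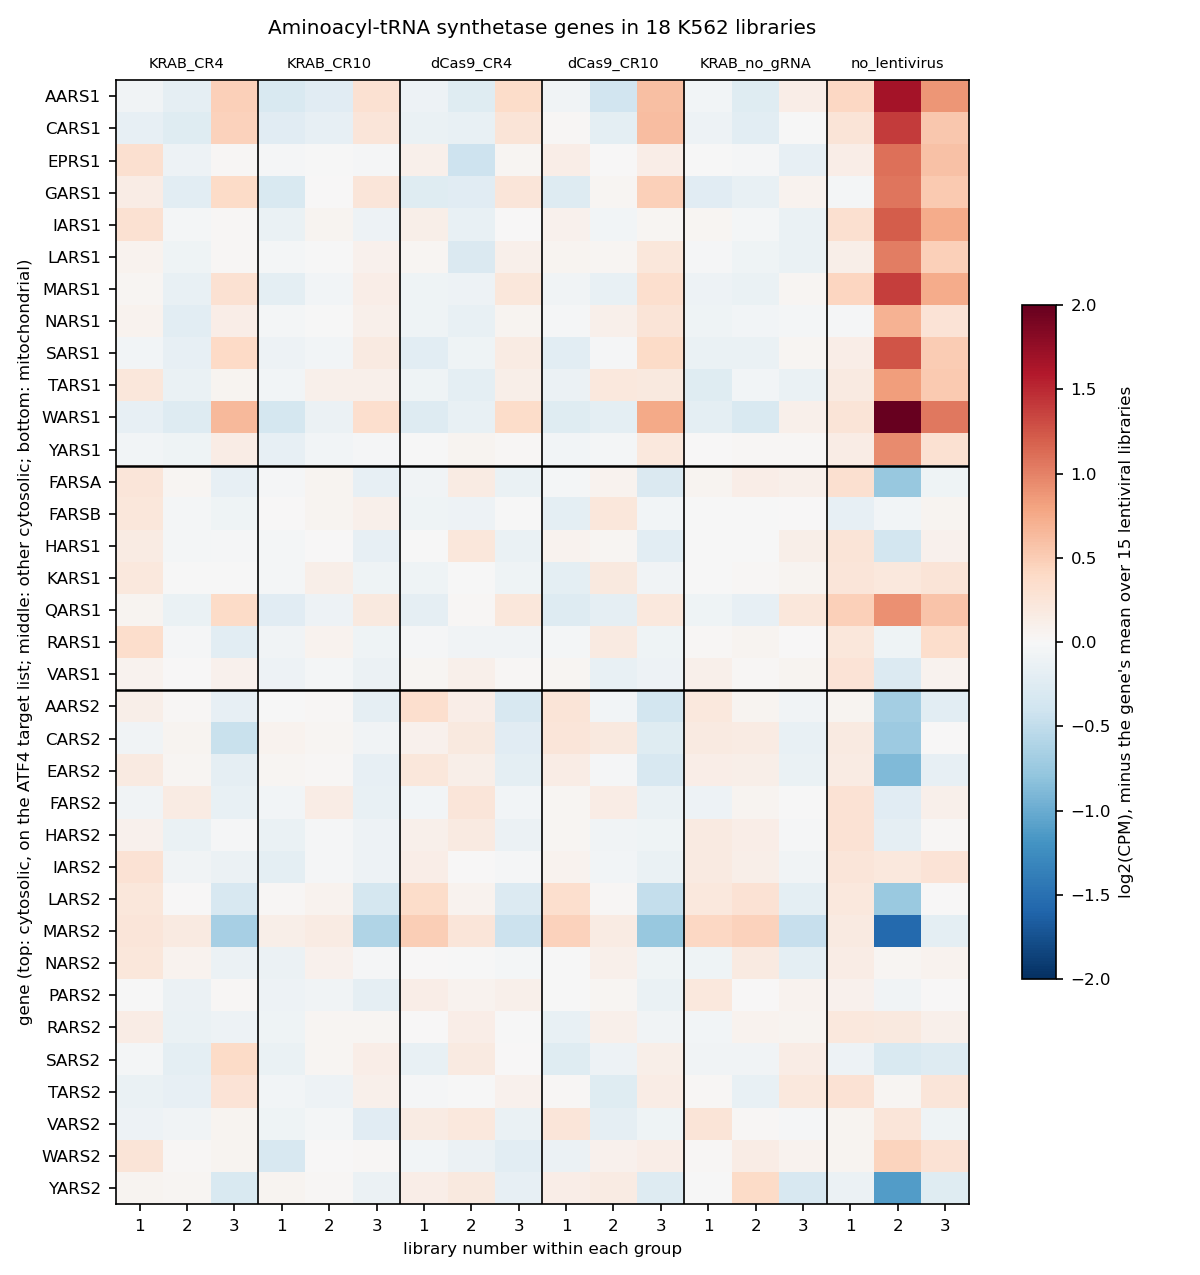
Level of each of the 35 genes (rows) in each library (columns, 3 per group), as log2 CPM minus the gene's mean over the 15 lentiviral libraries; the colour scale runs from -2 (blue) to 2 (red). The 12 members of the ATF4 target list (top block) were highest in no_lentivirus library 2, where MARS2 and YARS2 (bottom block) were lowest.

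Bringing dCas9-KRAB to HS2 left the synthetases without a detectable change. Of the 35 members 0 passed in KRAB_CR4 and in KRAB_CR10 against KRAB_no_gRNA, where 0.0204% of all genes were called in each comparison, and 0 passed against dCas9 alone with the matching gRNA (also 0.0204% each) or in the mean over both gRNAs (0.0272%, of which 0.00679% higher). None passed either where 0% of all genes were called, in dCas9_CR4 and dCas9_CR10 against KRAB_no_gRNA and in KRAB_CR4 against KRAB_CR10. The edgeR quasi-likelihood test with Benjamini-Hochberg adjustment over all genes gave a smallest adjusted p of 0.999 for any member in these 8 comparisons. Of the 280 values 0 had an unadjusted p under 0.05. Only 66 to 251 of all 14720 genes were under it per comparison, so this 0 says little about the synthetases. DESeq2 also called 0 members.

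The log2 fold changes of the members in these 8 comparisons ran from -0.26 to 0.30. In the fit of all 18 libraries their 95% intervals reached from -1.14 to 1.14. Fitted on the 15 lentiviral libraries with the replicate number as a block, which takes out what number 3 shared across groups, the intervals lay within -0.47 to 0.51, so that no interval held a change beyond 1.42-fold in either direction. That fit had 9 of 280 values at an unadjusted p under 0.05 and a smallest edgeR adjusted p of 0.442. Of all 14605 genes in it, 267 to 1511 had an unadjusted p under 0.05 per comparison.

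PARS2, the mitochondrial prolyl enzyme, was among the 3 members of smallest p in 5 of the 8 comparisons. It read 21.6, 20 and 22.1 CPM in KRAB_CR4, 20.3, 20.6 and 19.3 CPM in KRAB_CR10, and 25.2, 21.8 and 22.8 CPM in KRAB_no_gRNA. KRAB_CR10 lay below KRAB_no_gRNA in every library, and KRAB_CR4 overlapped it as a group while lying lower in each same-numbered pair. How many of all genes lay this way was not counted. Its log2 fold change in KRAB_CR10 against KRAB_no_gRNA was -0.21 ± 0.11 (SE), with a 95% interval from -0.46 to 0.03 and an edgeR adjusted p of 0.999. With the replicate block PARS2 was at -0.12 ± 0.10 in KRAB_CR4 and -0.19 ± 0.10 in KRAB_CR10 (SE; edgeR adjusted p = 0.763 and 0.537). WARS2, the mitochondrial tryptophanyl enzyme, had the smallest member p in 4 comparisons, and averaged 29 ± 2.63 CPM in KRAB_CR4 against 24.6 ± 1.44 CPM in dCas9_CR4 (SD, n = 3 each), a log2 fold change of 0.24 ± 0.14 (± SE, with an edgeR adjusted p of 1). The other members of smallest p in a comparison were TARS1, NARS1, KARS1, RARS1, CARS1, VARS1, FARSB, IARS2, VARS2 and CARS2. In comparisons that share the KRAB_no_gRNA libraries, TARS1, the cytosolic threonyl enzyme, stood at 0.20 ± 0.15 in KRAB_CR4 and 0.24 ± 0.15 in dCas9_CR10 against KRAB_no_gRNA (log2 fold change, SE). IARS2 stood at -0.18 ± 0.12 and VARS2 at -0.21 ± 0.14 in KRAB_CR10 against KRAB_no_gRNA.

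Against untransduced cells the lentiviral groups had lower levels of cytosolic synthetases. Of the 19 cytosolic members 13 fell and 0 rose, and of the 16 mitochondrial members 0 passed. Of all genes 11.2% were called lower and 7.55% higher. Among the mitochondrial members 3 had an unadjusted p under 0.05, as had 4940 of all 14720 genes. DESeq2 called 2 of 16 lower, where it called 13.2% of all genes lower. All 12 members of the ATF4 target list fell, and QARS1 was the 1 faller among the other 7. The median log2 fold change was -0.68 over the ATF4 target list, -0.04 over the other cytosolic members, -0.03 over the mitochondrial members and 0.01 over all genes tested. This comparison leans on 1 library: without no_lentivirus library 2 only IARS1 and MARS1 passed, where 2.32% of all genes were called and 1.36% were lower. Without scaling beyond library size 11 members fell, and the genes called lower made up 49.6% of all calls, against 59.7% with TMM scaling.

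IARS1, the cytosolic isoleucyl enzyme, had the smallest p. It read 610 to 844 CPM in the 15 lentiviral libraries, with a median of 686, against 851, 1570 and 1131 CPM in no_lentivirus libraries 1, 2 and 3. No lentiviral library reached the lowest untransduced one, from which the highest differed by little. Its log2 fold change was -0.80 ± 0.12 (SE; edgeR adjusted p = 0.00089), and -0.54 ± 0.11 without no_lentivirus library 2 (edgeR adjusted p = 0.0184).

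MARS1, the cytosolic methionyl enzyme, which makes the charged tRNA for initiation, read 347 to 505 CPM in lentiviral libraries, with a median of 381, against 535, 1040 and 665 CPM in no_lentivirus libraries 1, 2 and 3. The groups did not overlap. The log2 fold change was -0.90 ± 0.15 (SE; edgeR adjusted p = 0.00133), and -0.58 ± 0.14 without no_lentivirus library 2 (edgeR adjusted p = 0.0361). MARS1 shares 62 exonic bases with DDIT3 on the opposite strand, and the libraries do not mark strand. DDIT3 itself read 12.2 to 51.6 CPM in lentiviral libraries, against 13.9, 87.4 and 28.8 CPM in no_lentivirus libraries 1, 2 and 3, and its part in the MARS1 counts was not tested.

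QARS1, the cytosolic glutaminyl enzyme, read 169 to 265 CPM in lentiviral libraries, with a median of 189, against 282, 381 and 300 CPM in no_lentivirus libraries 1, 2 and 3. No overlap was seen here either. QARS1 had a log2 fold change of -0.66 ± 0.13 (± SE, with an edgeR adjusted p of 0.00406), and without no_lentivirus library 2 it was -0.52 ± 0.15 and did not pass (edgeR adjusted p = 0.0768).

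WARS1, the cytosolic tryptophanyl enzyme, which is also known as an interferon-induced gene, had the largest fall among the members. It read 295 to 639 CPM in lentiviral libraries, with a median of 337, against 451, 1694 and 786 CPM in no_lentivirus libraries 1, 2 and 3. Lentiviral libraries overlapped untransduced library 1, and library 2 was more than 2-fold above every other. The log2 fold change was -1.33 ± 0.27 (SE; edgeR adjusted p = 0.00406), and without no_lentivirus library 2 it was -0.68 ± 0.27 (edgeR adjusted p = 0.18).

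AARS1, the cytosolic alanyl enzyme, read 343 to 681 CPM in lentiviral libraries, with a median of 426, against 599, 1420 and 828 CPM in no_lentivirus libraries 1, 2 and 3, overlapping library 1. AARS1 had a log2 fold change of -1.05 ± 0.21 (± SE, with an edgeR adjusted p of 0.00413), and without no_lentivirus library 2 it was -0.64 ± 0.22 (edgeR adjusted p = 0.13). TARS1 read 432 to 594 CPM in lentiviral libraries, with a median of 492, against 577, 906 and 731 CPM in no_lentivirus libraries 1, 2 and 3, and only library 1 was overlapped. Its log2 fold change was -0.53 ± 0.11 (SE; edgeR adjusted p = 0.00499), and without no_lentivirus library 2 it was -0.36 ± 0.12 (edgeR adjusted p = 0.104).

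The 7 further fallers were EPRS1 (glutamyl and prolyl), LARS1 (leucyl), YARS1 (tyrosyl), SARS1 (seryl), CARS1 (cysteinyl), GARS1 (glycyl) and NARS1 (asparaginyl). Their log2 fold changes ran from -0.80 for CARS1 to -0.35 for NARS1, with edgeR adjusted p from 0.00508 for EPRS1 to 0.0418 for NARS1. KARS1, the lysyl enzyme, missed the threshold at -0.24 ± 0.08 (SE; edgeR adjusted p = 0.0519), although its 340 to 449 CPM in lentiviral libraries lay below the 462, 452 and 467 CPM of the untransduced ones. With IARS1, MARS1 and QARS1 it made up the 4 members, all cytosolic, whose lentiviral libraries all lay below all untransduced ones, against 4.24% of all genes; 0 members lay above, against 3.31%. Against no_lentivirus library 1 alone, 7 cytosolic and 4 mitochondrial members lay below in all 15 lentiviral libraries, with 10.8% of all genes below and 8.36% above. The remaining cytosolic members were near 0, from -0.17 for RARS1 to 0.12 for FARSA.

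The cytosolic members EPRS1, IARS1, KARS1, LARS1, MARS1, QARS1 and RARS1 sit in the multi-synthetase complex, and 5 of these 7 fell (11.2% of all genes), with 2 of 7, IARS1 and MARS1, passing without no_lentivirus library 2. Of the 3 scaffold proteins of the complex, EEF1E1 fell by 0.45 on the log2 scale (edgeR adjusted p = 0.0168, and 0.222 without no_lentivirus library 2) and AIMP1 and AIMP2 did not pass. By structural class, 7 of 18 class I members and 5 of 16 class II members fell, beside EPRS1, which holds a domain of each class; without no_lentivirus library 2 these were 2 and 0.

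Mitochondrial members ran from -0.27 for WARS2 to 0.44 for YARS2, the tyrosyl enzyme, and none passed. YARS2 read 28.6 to 46.4 CPM in lentiviral libraries, with a median of 36.5, against 32.8, 16.4 and 30.1 CPM in no_lentivirus libraries 1, 2 and 3 (log2 fold change 0.44 ± 0.18, SE; edgeR adjusted p = 0.0907). It passed without no_lentivirus library 1, together with EARS2, the glutamyl enzyme, where 9.74% of all genes were called higher. In the same fit WARS2 was called lower at -0.38, with 14.5% of all genes lower. YARS2 also passed without the lentiviral libraries numbered 3, where TARS2 was called lower at -0.29. There 1778 of 14770 genes were called higher and 2664 lower. IARS2 was called lower with DESeq2 (13.2% of all genes lower), the 18-library replicate block (16.7%) and a mean-count filter of 50 (12.2%). It was also called lower without KRAB_CR4 library 1 (10.6%) or dCas9_CR10 library 1 (10.8%).

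**Figure D2:**
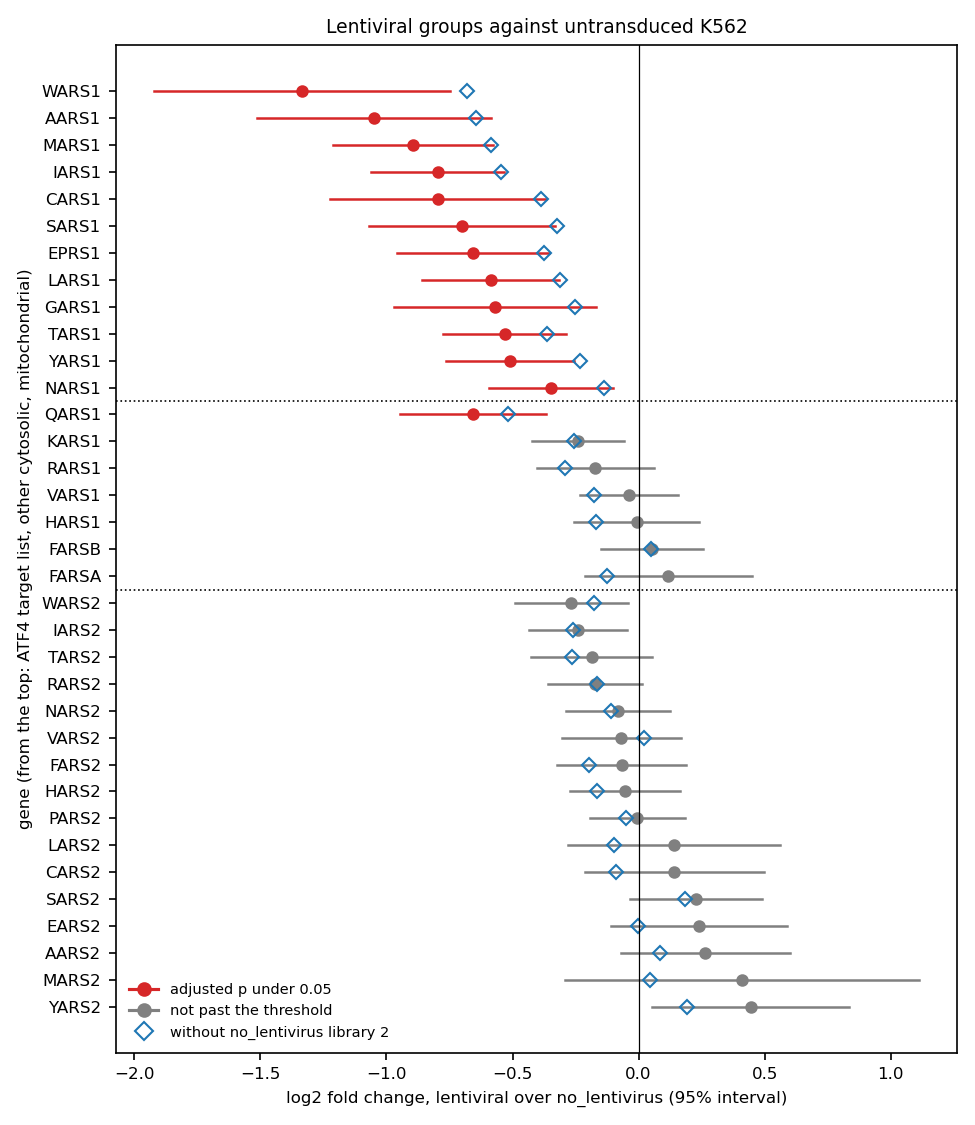
Log2 fold change of each gene, lentiviral over no_lentivirus, with 95% intervals (edgeR, 18 libraries); red marks an adjusted p under 0.05, and open diamonds give the value without no_lentivirus library 2. All 12 genes of the top block and QARS1 are red, and their diamonds lie nearer to 0 in every case.

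The same direction was seen in KRAB_no_gRNA alone. Against no_lentivirus, 8 of 19 cytosolic members fell and 0 rose, and 0 of 16 mitochondrial members passed. Of all genes 6.63% were called, 3.76% lower and 2.87% higher. The fallers were IARS1, MARS1, TARS1, LARS1, EPRS1, WARS1, AARS1 and QARS1. Among the mitochondrial members 1 had an unadjusted p under 0.05, as had 3863 of all 14720 genes. The untransduced libraries are those of the previous comparison, so the results are not independent. IARS1 read 695, 662 and 618 CPM in KRAB_no_gRNA against 851, 1570 and 1131 CPM in no_lentivirus, a log2 fold change of -0.85 ± 0.17 (± SE, with an edgeR adjusted p of 0.0139). WARS1 read 330.1, 307 and 406 CPM in KRAB_no_gRNA against 451, 1694 and 786 CPM in no_lentivirus (-1.49 ± 0.39, SE; edgeR adjusted p = 0.0348). The groups did not overlap in either gene, and the share of all genes without overlap was not counted for 3 libraries against 3.

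In these fits single libraries decided the count. It was 0 without no_lentivirus library 2 (where 0.175% of all genes were called lower), 0 without KRAB_no_gRNA library 1 (0.0865%), 1 without KRAB_no_gRNA library 2 (0.521%), and 2 without KRAB_no_gRNA library 3 (0.74%) or no_lentivirus library 3 (0.957%). It was 13 without no_lentivirus library 1 (9.54%), and 0 when only these 6 libraries were fitted, where 0 of 14104 genes were called. The calls over all genes thus fell away in the same fits as those of the synthetases.

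The synthetases also differed between the untransduced libraries themselves. In no_lentivirus library 2, over the mean of libraries 1 and 3, 14 of 19 cytosolic members were higher, with a median log2 ratio of 0.66, and 3 of 16 mitochondrial members were higher, with a median of -0.29. Over 12060 genes above 1 CPM the median was 0.00, with the 5th and 95th percentiles at -0.86 and 0.96. WARS1 was 2.74-fold higher in library 2, and CARS1 and AARS1 were 2-fold and 1.99-fold higher. MARS2, the mitochondrial methionyl enzyme, read 46.5, 14 and 35.7 CPM in libraries 1, 2 and 3, a log2 ratio of -1.56 for library 2. FARSA, the alpha subunit of the phenylalanyl enzyme, was the cytosolic member that went lowest there, at 285, 135 and 215 CPM in libraries 1, 2 and 3, while its partner FARSB read 136, 147 and 157 CPM. Library 3 lay between the other libraries in most members: library 2 was highest and library 1 lowest in 13 of 19 cytosolic members, and library 1 was highest and library 2 lowest in 12 of 16 mitochondrial ones. The share of all genes in these orders was not counted, so the counts are not read as particular to the synthetases. With 1 library in each state these values have no replicate check.

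Among the lentiviral libraries the number in the label went with a further shift. In the libraries numbered 3, against those numbered 1 and 2 and with the group in the model, 9 of 19 cytosolic members were higher and 1 was lower, while 2 of 16 mitochondrial members were higher and 6 were lower. All genes moved widely here, with 27.9% called higher and 25.9% lower, so that the 18 of 35 members called are near the 53.8% of all genes and the count as such says nothing about the synthetases. The median log2 fold change was 0.11 for the cytosolic members, -0.12 for the mitochondrial ones and 0.03 over all genes. Without scaling beyond library size 64% of all calls were higher, against 51.9% with TMM scaling, the median of all genes was 0.10, and 13 members were higher and 6 lower. The contrast was chosen with the position of number 3 already known from these data. The labels do not say what the number marks. If it marks a shared batch, the libraries numbered 3 are not independent of each other. The p-values of this contrast then measure agreement across groups, and not the spread between batches.

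On the ATF4 target list 8 of 12 members were higher and 0 were lower in number 3. WARS1 read 590.1, 475, 488, 639 and 406 CPM in libraries numbered 3 of KRAB_CR4, KRAB_CR10, dCas9_CR4, dCas9_CR10 and KRAB_no_gRNA, against 295 to 346 CPM, with a median of 324, in the 10 numbered 1 and 2. Every number 3 library lay above all of those. The log2 fold change was 0.69 ± 0.07 (SE; edgeR adjusted p = 1.14e-07). AARS1 read 624, 554, 580.5, 681 and 493 CPM in number 3, in the same order of groups, against 343 to 432 CPM, with a median of 389 (0.59 ± 0.06, SE; edgeR adjusted p = 1.87e-07). These did not overlap either.

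CARS1, the cysteinyl enzyme, read 208, 178, 181, 232 and 149.5 CPM in number 3, against 128 to 153 CPM, with a median of 135, in numbers 1 and 2 (log2 fold change 0.50 ± 0.07, SE; edgeR adjusted p = 3.32e-06). Only its KRAB_no_gRNA library overlapped. QARS1, which is not on the ATF4 target list, read 265, 232, 235, 235 and 237 CPM, against 169 to 211 CPM, with a median of 182 (0.40 ± 0.06, SE; edgeR adjusted p = 5.17e-06). It was separate in all groups, and nearly level among the number 3 libraries outside KRAB_CR4.

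GARS1, the glycyl enzyme, read 585, 534, 529.5, 624 and 472 CPM in number 3, against 365 to 500.5 CPM, with a median of 388, in numbers 1 and 2 (log2 fold change 0.44 ± 0.07, SE; edgeR adjusted p = 2.03e-05). SARS1 read 433, 373, 366, 429 and 337 CPM, against 282 to 321 CPM, with a median of 304 (0.37 ± 0.06, SE; edgeR adjusted p = 2.11e-05). SARS1 did not overlap, and GARS1 overlapped through KRAB_CR4 library 1 alone. MARS1 at 0.33, NARS1 at 0.17 and YARS1 at 0.14 were the further cytosolic members that rose, and FARSA was lower at -0.17.

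The other members of the ATF4 target list, EPRS1, IARS1, LARS1 and TARS1, did not pass. IARS1 read 692, 630.5, 686, 695 and 618 CPM in number 3 against 610 to 844 CPM, with a median of 679, in numbers 1 and 2, so that the member of smallest p against untransduced cells did not pass here. Its log2 fold change was -0.03 with a 95% interval from -0.17 to 0.11, and that of EPRS1 was 0.03, from -0.13 to 0.18. An exact TGATGCAA thus stood in the promoter windows of genes that passed (AARS1, CARS1, MARS1, NARS1) and of genes that did not (IARS1, TARS1).

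Of the mitochondrial members MARS2 had the largest change. It read 25.7, 26.9, 30.3, 24.1 and 29.6 CPM in number 3 of KRAB_CR4, KRAB_CR10, dCas9_CR4, dCas9_CR10 and KRAB_no_gRNA, against 44.5 to 57.5 CPM, with a median of 48.3, in numbers 1 and 2. All 5 libraries were below all 10. The log2 fold change was -0.86 ± 0.07 (SE; edgeR adjusted p = 9.58e-09). LARS2, the mitochondrial leucyl enzyme, read 92.5, 91.1, 96, 82.8 and 101.5 CPM, against 117 to 149.5 CPM, with a median of 128 (-0.46 ± 0.06, SE; edgeR adjusted p = 4.89e-06), again without overlap.

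EARS2, the mitochondrial glutamyl enzyme, read 81.1, 81.6, 80, 73.4 and 83.2 CPM in number 3, against 90.3 to 106 CPM, with a median of 98.8, in numbers 1 and 2 (log2 fold change -0.27 ± 0.06, SE; edgeR adjusted p = 0.000327). AARS2, the mitochondrial alanyl enzyme, read 77.2, 76.8, 69.8, 67.6 and 82.5 CPM, against 83.9 to 109.9 CPM, with a median of 92 (-0.31 ± 0.06, SE; edgeR adjusted p = 0.000455). Both were lower in all number 3 libraries. YARS2 at -0.33 and CARS2 at -0.32 were also lower without overlap, and TARS2 at 0.27 and SARS2 at 0.26 were higher.

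In all, AARS1, MARS1, QARS1, SARS1, WARS1 and TARS2 were above all libraries numbered 1 and 2 in every number 3 library (9.06% of all genes), and AARS2, CARS2, EARS2, LARS2, MARS2 and YARS2 were below (11.6% of all genes). AARS1 and AARS2, which charge the same amino acid in their compartments, thus moved in opposite directions, as did MARS1 with MARS2, CARS1 with CARS2 and YARS1 with YARS2. SARS1 and SARS2 were both higher. SARS2 shares 349 exonic bases with MRPS12 on the opposite strand, and reads of the pair cannot be told apart in unstranded libraries; MRPS12 was lower at -0.52. At the still end were FARSB and VARS1 (0.00 each), RARS2 at -0.01 and PARS2 at -0.02, with 95% intervals no wider than -0.18 to 0.16.

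Part of the promoter window of MARS2 is shown since MARS2 fell most in number 3. It covers the 100 bases before the start, with a motif of NRF1, a regulator of mitochondrial genes, and CACGTG, an E-box, in capitals; these motifs were chosen after the values were seen.
MARS2, chr2:197705269-197705368, plus strand: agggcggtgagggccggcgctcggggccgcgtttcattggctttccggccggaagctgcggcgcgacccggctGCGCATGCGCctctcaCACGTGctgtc
MARS2 was the 1 member of 30 with that NRF1 motif in a window, against 1.52% of all genes. CACGTG stood in windows of IARS1, CARS2, EARS2 and MARS2, 4 of 30 members, against 8.77% of all genes.

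The size of the number 3 shift differed between groups. KRAB_no_gRNA had the smallest log2 difference for WARS1, at 0.35, against 0.86 in KRAB_CR4, 0.57 in KRAB_CR10, 0.57 in dCas9_CR4 and 0.98 in dCas9_CR10. For AARS1 it was 0.28 in KRAB_no_gRNA, against 0.60, 0.57, 0.54 and 0.82 in the same order. MARS2 did not share that order, with -0.90 in KRAB_no_gRNA, -0.88, -0.75, -0.81 and -1.08 in the others. Each value sets 1 library against 2 of its group, so that differences between groups were not tested.

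**Figure D3:**
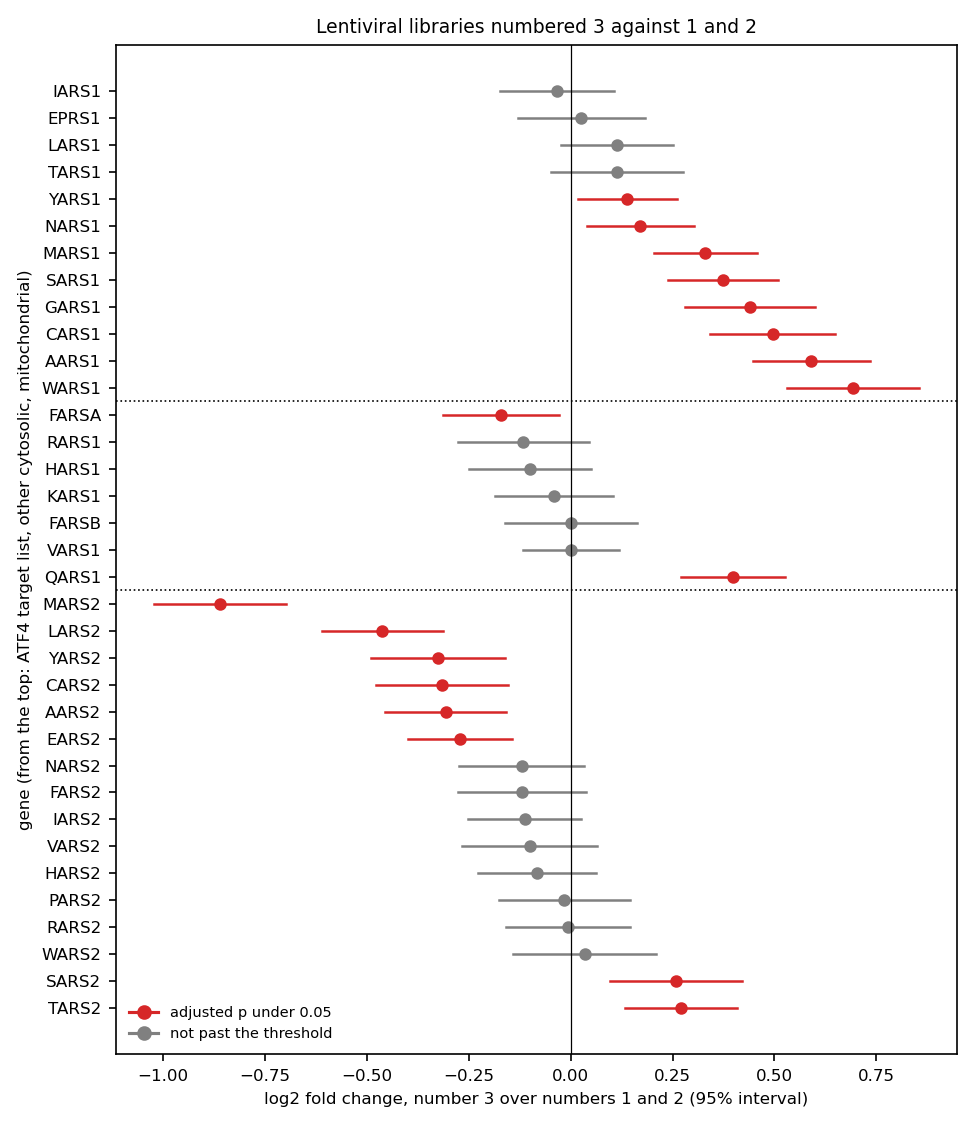
Log2 fold change of each gene in lentiviral libraries, number 3 over numbers 1 and 2, with 95% intervals (edgeR, 15 libraries, group in the model); red marks an adjusted p under 0.05. WARS1 at 0.69 and MARS2 at -0.86 are the extremes, and 18 of 35 genes are red.

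Between numbers 1 and 2 of the lentiviral groups none of the 35 members passed (also 0 by DESeq2), where 1.05% of all genes were called, 0.876% higher. Of the members 2 had an unadjusted p under 0.05, as had 2920 of all 14605 genes. The members of smallest p were FARS2, the mitochondrial phenylalanyl enzyme, at -0.22 ± 0.08 (log2, number 1 over number 2, with its SE; edgeR adjusted p = 0.125), EPRS1 at 0.19 ± 0.08 (edgeR adjusted p = 0.172) and AARS2 at 0.13 ± 0.07 (edgeR adjusted p = 0.317). FARS2 averaged 20.7 ± 0.763 CPM in number 1 and 23.9 ± 1.1 CPM in number 2 (SD, n = 5 each), without overlap. How many of all genes lay without overlap there was not counted.

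Summed over each set, the balance of the compartments followed the same libraries. The cytosolic sum was 6373 to 8153 CPM in the lentiviral libraries, with a median of 6863, against 8158, 13969 and 9955 CPM in no_lentivirus libraries 1, 2 and 3, so that all lentiviral libraries lay below, the highest of them by little. The mitochondrial sum was 997 to 1256 CPM, with a median of 1109, against 1266, 1008 and 1175 CPM. The ratio of cytosolic to mitochondrial counts was 5.38 to 8.18 in lentiviral libraries, against 6.44, 13.9 and 8.47 in the untransduced ones. Within the lentiviral groups it averaged 7.32 ± 0.603 in number 3 (SD, n = 5), at 6.56 to 8.18, and 5.76 ± 0.321 in numbers 1 and 2 (SD, n = 10), at 5.38 to 6.19. These did not overlap. Without GARS1 and KARS1, which serve both compartments, the means were 6.42 ± 0.536 and 5.07 ± 0.252.

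**Figure D4:**
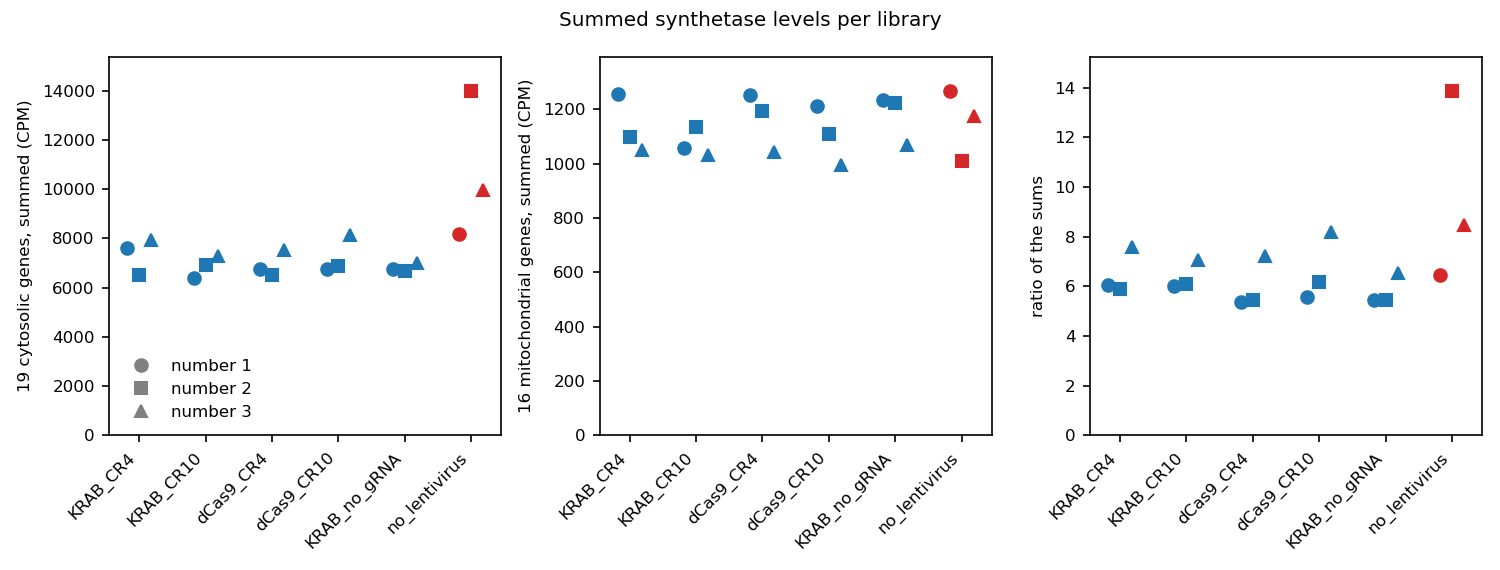
Summed CPM of the 19 cytosolic genes (left), of the 16 mitochondrial genes (middle) and their ratio (right) in each library, by group, with symbols for the library number. The triangles (number 3) have the highest ratio in each lentiviral group, 6.56 to 8.18, and no_lentivirus library 2 stands highest of all at 13.9.

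No_lentivirus library 2 and the lentiviral libraries numbered 3, which share no library, moved the 35 members in similar directions, as they did genes at large. Across the members the log2 ratio of library 2 over libraries 1 and 3 and the log2 fold change of number 3 correlated at Pearson r = 0.87 (n = 35 genes, which are not independent replicates and were measured in the same libraries within each axis). Over 11615 genes above 1 CPM in every library, with the number 3 difference taken from mean CPM, r was 0.56. Those genes were not matched to the members in level, so the r values are not directly comparable. WARS1 was at the upper end and MARS2 at the lower end of both. EPRS1 and IARS1 were among those off this relation, with 0.73 and 0.66 in library 2 and 0.03 and -0.03 in number 3.

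**Figure D5:**
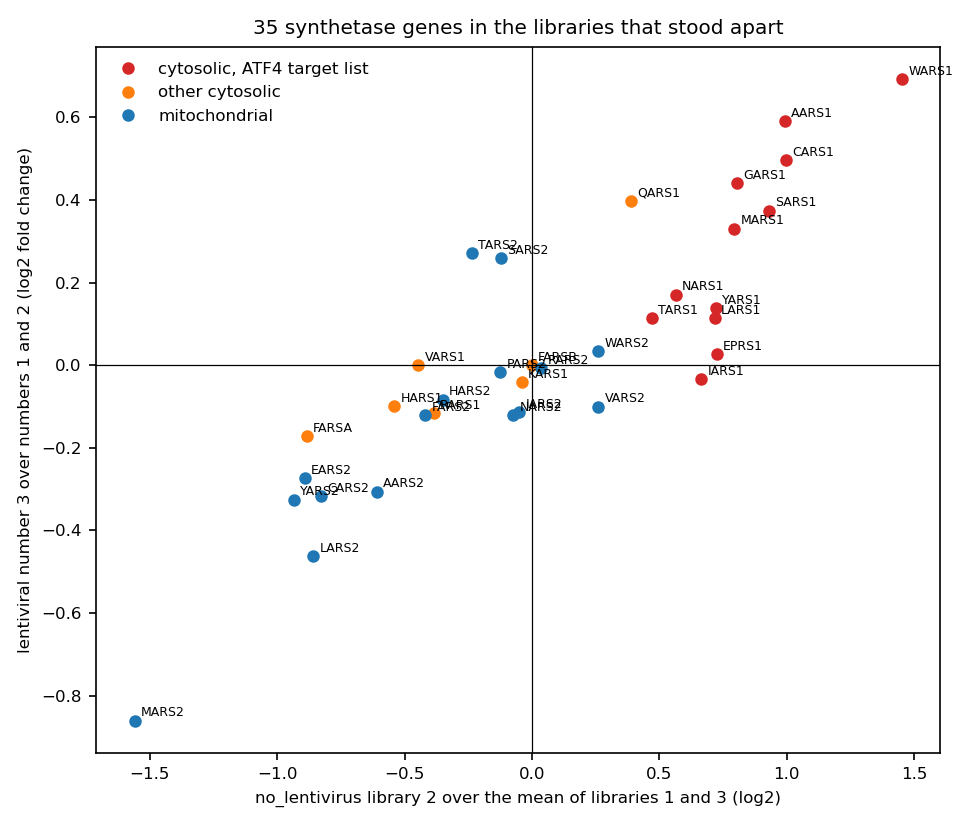
Each point is 1 of the 35 genes: log2 ratio of no_lentivirus library 2 over the mean of libraries 1 and 3 (horizontal) against log2 fold change of lentiviral number 3 over numbers 1 and 2 (vertical), coloured by set. WARS1 lies at 1.45 and 0.69, and MARS2 at -1.56 and -0.86.

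Other genes of the amino acid response moved in the same libraries. Of 24 listed genes of the amino acid and ATF4 pathway 23 were tested; 10 fell and 0 rose in the lentiviral groups against no_lentivirus, led by PHGDH, SHMT2 and ASNS, and 19 rose and 1 fell in number 3, led by CHAC1, DDIT4 and STC2. Of all genes 11.2% fell and 7.55% rose against no_lentivirus, and 27.9% rose and 25.9% fell in number 3. Without no_lentivirus library 2, 0 of the 23 passed. Their summed level was 3567 to 5847 CPM in number 3 against 2724 to 3203 CPM in numbers 1 and 2, and 2724 to 5847 CPM in all lentiviral libraries against 3189, 9103 and 4736 CPM in no_lentivirus libraries 1, 2 and 3. PHGDH, which opens serine synthesis, fell by 2.38 ± 0.41 on the log2 scale against no_lentivirus (SE, edgeR adjusted p = 0.00185) and ASNS, the asparagine synthetase, fell by 1.39 ± 0.31 (edgeR adjusted p = 0.00677). Without no_lentivirus library 2 PHGDH was at -1.36 ± 0.44 and ASNS at -0.57 ± 0.30 (log2, SE), and neither passed (edgeR adjusted p = 0.101 and 0.323). ASNS read 224 to 598 CPM in lentiviral libraries, against 299, 1517 and 624 CPM in no_lentivirus libraries 1, 2 and 3, so that library 1 lay inside the lentiviral range. ATF4 itself rose by 0.62 ± 0.06 in number 3 (log2, SE; edgeR adjusted p = 7.3e-08). CHAC1, which breaks down glutathione, rose there by 2.95 ± 0.13 (edgeR adjusted p = 2.85e-12). The part of this response in the synthetase levels was not tested.

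Genes that work beside the synthetases showed no single direction, and their counts are to be read against the same shares of all genes. Without no_lentivirus library 2, 0 of the tRNA, mitochondrial translation and scaffold genes passed against no_lentivirus. Of 15 genes of tRNA maturation and delivery 2 rose and 3 fell against no_lentivirus, and 4 rose and 6 fell in number 3, where the elongation factor gene EEF1A1 rose by 0.20 and ELAC2, a tRNA 3′ processing enzyme, fell by 0.37 on the log2 scale. Among 10 genes of mitochondrial translation and transcription 0 passed against no_lentivirus, and 1 rose and 6 fell in number 3, led by the elongation factor GFM1 at -0.66 ± 0.07 (SE; edgeR adjusted p = 1.79e-07), with MTIF2 the 1 that rose. AIMP2 was the 1 scaffold gene called in number 3, at -0.34.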

How the data were processed

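Counts per RefSeq transcript were deposited by the authors, 1 file per library; alignment and handling tools listed in the submitters' processing notes are Bowtie2, Picard, SAMtools, DESeq and R 3.1.2, with hg19 as the build, and the counting tool is not given in the sources used here. Per the labels' protocols, poly(A) RNA was made into cDNA and tagged with Nextera transposase, which does not mark strand. All deposited counts were even (0 odd values), so fragments appear to have been counted as 2 mates. The 40709 accessions were summed to 24408 genes with RefSeq (39320 accessions) and GENCODE (521) names, which held 99.02% of counts; 868 kept their accession.

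After filterByExpr and TMM scaling, differences were tested by quasi-likelihood in edgeR (version 4.0.16 under R 4.3.3), and p-values were adjusted over all genes by Benjamini-Hochberg at 0.05. The 10 group comparisons used 1 fit of 6 group means (14720 genes). Library numbers were compared on the 15 lentiviral libraries with group in the model (14605 genes). SEs come from the test statistic, and CPM values are TMM-scaled. Alternatives were other scaling and filters, halved counts, DESeq2 1.42.0, a replicate block, fewer groups, and leaving out libraries. Coordinates are GRCh38.p14 and promoters RefSeq; exon overlaps come from GENCODE. The members, lists and comparisons were chosen with earlier results of these data known.

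Members named with values were those that passed in a comparison (beyond 12, the 6 cytosolic and 4 mitochondrial of smallest p), the 3 of smallest p where none passed, and the pair of each set that changed least in number 3. Whether numbers pair libraries was checked by correlating deviations from group means over 11763 genes: all 30 same-numbered lentiviral pairs were above 0.1 (0.162 to 0.873), as were 17 of 60 different-numbered pairs, and 5 of 15 same-numbered pairs with an untransduced library. Of 30 different-numbered pairs with an untransduced library, 19 were also above 0.1 (up to 0.635). The lentiviral libraries numbered 3 went together, at 0.725 to 0.873. For the other numbers the check cannot decide, since libraries opposite a distant number 3 share a deviation from the group mean, paired or not. The numbers, from the titles, were used as a block among lentiviral libraries and not read as pairing these with untransduced ones.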

Additional observations from a re-analysis of the deposited data

Results flagged for a closer look

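Within each library number the 5 lentiviral libraries were examined for a value far from the others, in 51 sets of 5 (a gap over range above 0.71); chance alone gives about 1 in 20. The sets covered only the members picked by the rule above for number 3 against numbers 1 and 2, the sums and their ratio. The other members were not examined. The 6 found were these. AARS1 in KRAB_CR10 library 1 read 364 CPM, against 418 to 432 CPM in the other libraries numbered 1. The mitochondrial sum of the same library was 1059 CPM, against 1213 to 1256 CPM, and 3.52% of its counts were ribosomal RNA. GARS1 in KRAB_CR4 library 1 read 500.5 CPM, against 365 to 385 CPM. MARS2 in KRAB_no_gRNA library 2 read 56.6 CPM, against 45.8 to 48.4 CPM in the others numbered 2, and LARS2 in the same library read 141 CPM, against 117 to 121 CPM. QARS1 in KRAB_CR4 library 3 read 265 CPM, against 232 to 237 CPM. Groups of 3, the untransduced one included, are too small for this rule.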

How the results depend on the processing

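In the 8 comparisons between lentiviral groups and in number 1 against number 2, no member was called in the main fits or in the 156 other fits run, with the smallest edgeR or DESeq2 adjusted p at 0.0764; leaving out single libraries gave 0 throughout. A replicate block, fitted to the 15 lentiviral libraries, also gave 0 in each of the 8 and changed no call there. Against no_lentivirus the numbers are not read as pairing the libraries; the block on all 18 gave 15 lower members for the lentiviral groups (main 13) and 12 for KRAB_no_gRNA (main 8), while the share of all genes called was 28.5% (main 18.7%) and 17.8% (main 6.63%). The lentiviral count otherwise ran from 11 without scaling (17.7% of all genes called) to 16 with DESeq2 (23.5%). It was 15 without the lentiviral libraries numbered 3 (14 lower, YARS2 higher), where 30.1% of all genes were called. Leaving out 1 library gave 2 (2.32% of all genes) to 16 (24.3%). For KRAB_no_gRNA it was 6 without scaling (6.72% of all genes called), 10 with relative log expression (RLE) scaling in edgeR (6.69%) and 10 without a filter (4.62%). It was 10 with halved counts (8.01%), 11 with DESeq2 (13.6%) and 0 with only both groups fitted (0 of 14104 genes called at all). When 1 library was left out it was 0 to 13, with 0.18% to 16.3% of all genes called. The cause was not tested. In number 3 against numbers 1 and 2 the count ran from 17 (7846 of 19647 genes called, without a filter) to 19 (7969 of 14605, without scaling). It ran from 14 (6880 of 14785) to 19 (7872 of 14819) when 1 library was left out. Among the called members picked for values by the rule above, no direction reversed in the fits run. The other called members were not checked for a reversal. No fit with the lentiviral and untransduced groups only was made, since it is the main fit.

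Each member had at least 426 counts in every library, and each group had 3 libraries. Every fall against the untransduced group carries the spread of its 3 libraries. Counting that splits reads evenly over accessions of a gene hides isoforms, and overlapping exons (HARS1 with HARS2, 331 bases; WARS1 with WDR25, 211; EARS2 with UBFD1, 370; YARS1 with S100PBP, 158) cannot be separated without strand.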
